A study of Rattus norvegicus with 10 samples.

Results

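The probe sets described here report nuclear genes for the mitochondrial respiratory chain and the ATP synthase in rat liver after a burn. They were chosen by name alone: every probe set whose single gene symbol in the array's probe table begins with Nduf, Sdha, Sdhb, Sdhc, Sdhd, Uqcr, Cox followed by a digit, or Atp5, or is Cyc1 or Cycs. This gave 102 probe sets of 56 genes out of 8799 probe sets on the array, of which 7018 carry 1 gene symbol. The rule itself uses no measured value, but it was set with earlier results of these data known. No probe set with 1 symbol is listed for Cycs. A further 7 probe sets list several symbols, 1 of them matching, and were not used.

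The study measured total RNA from rat liver (Rattus norvegicus) on 10 single-sample expression arrays. The 5 groups of 2 arrays are a sham control at 0 h and livers taken 1, 4, 8 and 24 h after a burn injury. The labels give no strain, sex, age, burn size or anaesthetic, and all comparisons with a burn time use the same 2 sham arrays, whose label gives 0 h, so time since the procedure was not matched by a later sham group. It is not stated whether replicate arrays carry RNA of different rats or of pools, and so the p-values reflect array-to-array spread alone, part or all of which could be technical.

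The respiratory chain sits in the inner mitochondrial membrane. Complexes I and II pass electrons from NADH and succinate to ubiquinone, complex III passes them on to cytochrome c, and complex IV hands them to oxygen. Complexes I, III and IV pump protons, and the ATP synthase, complex V, lets the protons flow back and makes ATP. Hepatocytes are rich in mitochondria and spend this ATP on urea, glucose and plasma protein synthesis. Most subunits are encoded in the nucleus, and a few core subunits in mitochondrial DNA, whose transcripts lie outside the naming rule.

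By role, complex I held 40 probe sets of 24 genes (Ndufa3, Ndufa5, Ndufa6, Ndufa8, Ndufa9, Ndufab1, Ndufb1, Ndufb2, Ndufb3, Ndufb5, Ndufb6, Ndufb8, Ndufb9, Ndufb10, Ndufb11, Ndufc1, Ndufc2, Ndufs1, Ndufs4, Ndufs6, Ndufs7, Ndufs8, Ndufv2 and Ndufv3). Complex II held 1 probe set, of Sdha. Complex III held 7 probe sets of 4 genes (Cyc1, Uqcr11, Uqcrc2 and Uqcrfs1). Complex IV held 25 of 12 genes (Cox4i1, Cox4i2, Cox5a, Cox5b, Cox6a1, Cox6a2, Cox6b1, Cox6c, Cox7b, Cox8a, Cox8b and Ndufa4, which is named for complex I but is a subunit of complex IV). Complex V held 13 of 9 genes (Atp5f1a, Atp5f1b, Atp5f1c, Atp5f1d, Atp5f1e, Atp5pb, Atp5pd, Atp5pf and Atp5po). The other 16 probe sets, of 6 genes, report proteins that assemble, regulate or resemble subunits: the ATPase inhibitor Atp5if1, the supercomplex factor Cox7a2l, the pseudogene Cox6c-ps1, the Ndufa4 paralogue Ndufa4l2, and the assembly factors Ndufaf3 and Sdhaf2.

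Nuclear respiratory factor 1 (NRF-1), GABP and YY1 are transcription factors known for binding promoters of this gene class, so the promoter windows in RefSeq (GRCr8, 250 bases before to 50 after each gene's start) were searched on both strands for 1 short motif each. A window was found for 47 of the 56 genes. The NRF-1 letters GCGCANGCG were in 9 of the 47 (19.1%), against 5.8% of all 33469 windows of the same length. The GABP letters CCGGAAG were in 10 (21.3% against 8.75%), and the YY1 letters AAGATGGCG in 7 (14.9% against 1.73%). The 30-base stretches around the NRF-1 match are shown for the genes described at array level below that hold one, to show the matched letters in their surroundings. Their likeness was set by the search. Capitals mark the match, read on the gene's own strand, and in Cox7a2l it is the reverse complement that matches.

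Sdha, chr1:30764454-30764483, plus strand: cgtttgcagaGCGCAGGCGcaccaccactc
Sdha, chr1:30764497-30764526, plus strand: ggagcgtgttGCGCAGGCGcagagccttcc
Sdha, chr1:30764542-30764571, plus strand: gcggctcggtGCGCAAGCGcagtctatcgc
Ndufa5, chr4:53971248-53971277, minus strand: cgtatgagctGCGCAGGCGcaaatctctcc
Atp5po, chr11:44657523-44657552, minus strand: acgccgacgcGCGCATGCGctctggcatca
Cox7a2l, chr6:16936551-16936580, plus strand: gtccaaaggaCGCTTGCGCatctgtcatag

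Sdha held 3 such matches within its window, and these genes code for complex I, II and V proteins and a supercomplex factor. A match is a description of letters, not a shown binding site. The 13 tested probe sets of genes with the NRF-1 letters had median log2 changes from sham of -0.11, -0.07, 0.10 and -0.02 at 1, 4, 8 and 24 h. The 66 of genes with a window but without the letters had -0.15, 0.03, 0.22 and 0.17. For GABP the medians were -0.17, 0.06, 0.21 and 0.01 with the letters and -0.10, -0.01, 0.19 and 0.18 without. For YY1 they were -0.04, -0.02, 0.07 and 0.22 with and -0.17, 0.01, 0.19 and 0.12 without.

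Intensities are the authors' deposited values, scaled so that every array's trimmed mean lay between 500.9 and 501, and intensities under a floor of 36.4 were set to the floor before log2. A probe set was tested where 2 or more of its 10 values exceeded the median of the array concerned, which kept 5285, and these held 92 of the 102 probe sets and all 56 genes. A probe set is called when its adjusted p (limma, 1 model of the 5 groups, Benjamini-Hochberg over all 5285) is under 0.05. Median intensity ran from 100.1 to 131.1 over the arrays, and 70.36% to 76.97% of an array's probe sets were above the floor. Arrays of 1 group correlated at 0.9483 to 0.9552 and arrays of different groups at 0.9411 at most.

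The liver markers were present and another tissue's markers moved with time. Albumin probe set rc_AA945321_at read between 42719 and 94417 on the 10 arrays. The 14 probe sets of 12 pancreatic acinar genes, which make digestive enzymes, summed to 9905 to 10698 on the sham arrays, 46175 to 47843 at 1 h, 2234 to 2471 at 4 h, 13504 to 14211 at 8 h and 2192 to 2725 at 24 h. All 14 were tested, and none was under the floor on every array. Limma called 12 higher at 1 h (1.44% of all tested called either way), 9 lower at 4 h (4.35%), 4 higher at 8 h (3.5%) and 10 lower at 24 h (10.3%). Their part in the respiratory chain values was not tested.

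The 10 probe sets not tested read between 4.2 and 101.5. They include both extra probe sets of the muscle isoform Cox6a2 (rc_AI171644_s_at and X72758mRNA_at) and 1 of the muscle isoform Cox8b (X64827cds_s_at). The others were 1 probe set each of Ndufab1, Ndufb11, Ndufs4, Ndufs8 and Atp5if1, and a pair of Ndufa4l2. The tested Cox8b probe set, U40836mRNA_s_at, read 55.2 and 289 on the sham arrays and between 64.2 and 262 after the burn, so its replicates differed more than its groups. Of the other marker lists, limma called 0 of 6 skeletal muscle and 0 of 5 heart probe sets against sham at any time (1.44% to 10.3% of all tested). At most 1 and 2 of them had an unadjusted p under 0.05 (12% to 25.6% of all tested). Adipose markers had 1 of 4 called lower at 4 h (4.35% of all tested called either way). Erythroid and phagocyte markers had 1 of 6 and 1 of 7 called lower at 24 h (10.3%).

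**Figure D1:**
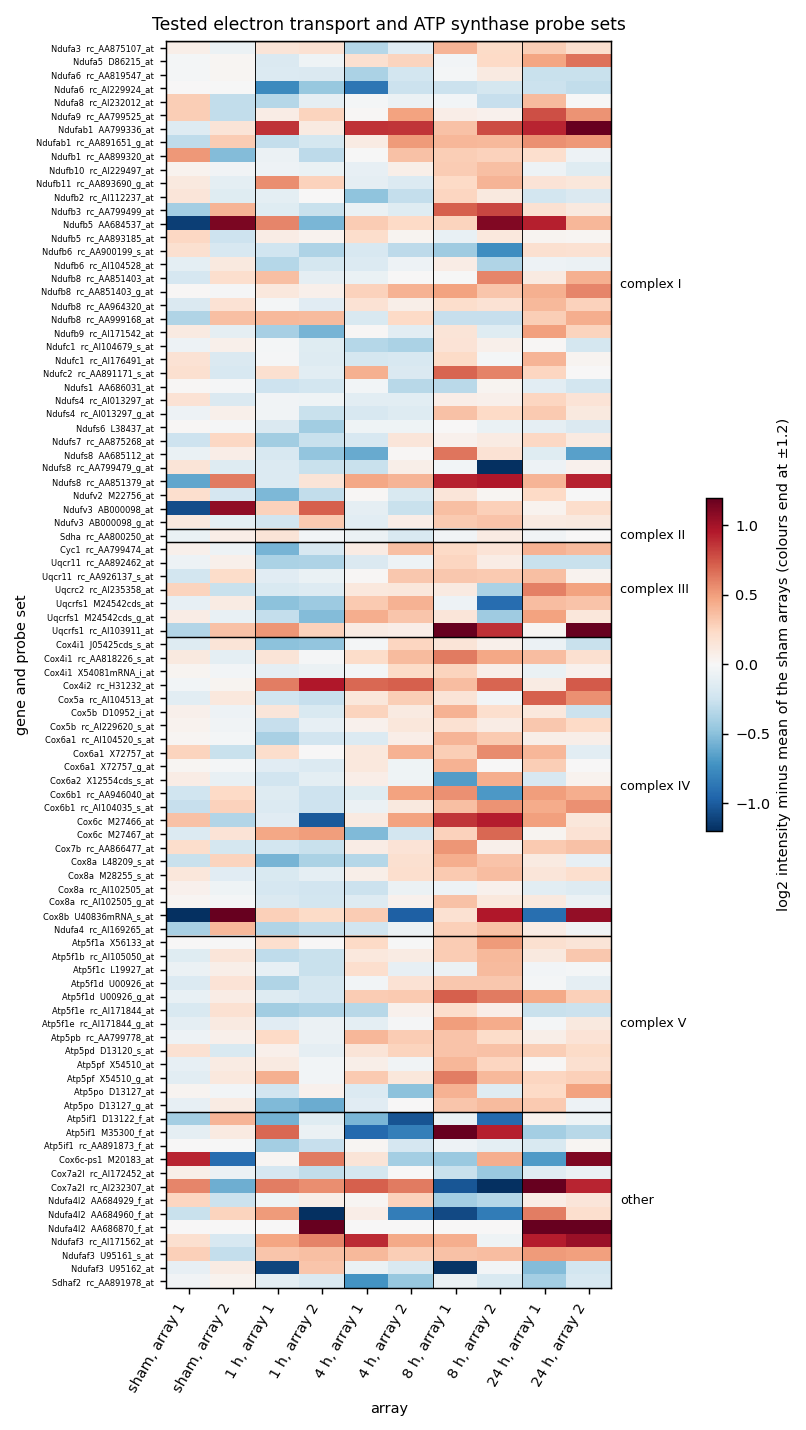
Log2 intensity of each of the 92 tested probe sets on each of the 10 arrays, minus the mean of the 2 sham arrays, in rows grouped by complex; red is above sham, blue below, and colours end at ±1.2. Most rows of complexes IV and V are blue at 1 h and red at 8 h. Most rows of complex III are blue at 1 h and mixed at 8 h, and the rows of assembly and regulatory proteins follow no common course.

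Levels of the respiratory chain probe sets stayed within narrow limits, with medians below sham at 1 h and above it at 8 h and 24 h, as deposited and under quantile normalization and centring. The median log2 change of the 92 tested probe sets from sham was -0.15 at 1 h and 0.005 at 4 h, then 0.20 at 8 h and 0.15 at 24 h. Over all 5285 tested probe sets the medians were 0.015, -0.037, -0.10 and -0.044. The 4 h median has no stable sign (-0.004 after quantile normalization). In whole liver RNA, fewer hepatocytes and less of a transcript in each hepatocyte cannot be told apart.

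Single arrays gave the same picture. The median deviation from the sham mean was -0.14 on each 1 h array (-0.138 and -0.145), -0.001 and 0.053 at 4 h, 0.26 and 0.17 at 8 h, and 0.17 and 0.14 at 24 h. The sham arrays stood at 0.001 and -0.001. The 1 h arrays were thus both below the sham arrays, and the 8 h and 24 h arrays above them. Over all tested probe sets the 8 h arrays stood at -0.14 and -0.029, so at 8 h the respiratory chain and the array as a whole lay on opposite sides of sham as deposited. With each array centred on its median the 8 h median over all tested probe sets was 0.066 in place of -0.10, and that of the 92 was 0.37.

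**Figure D2:**
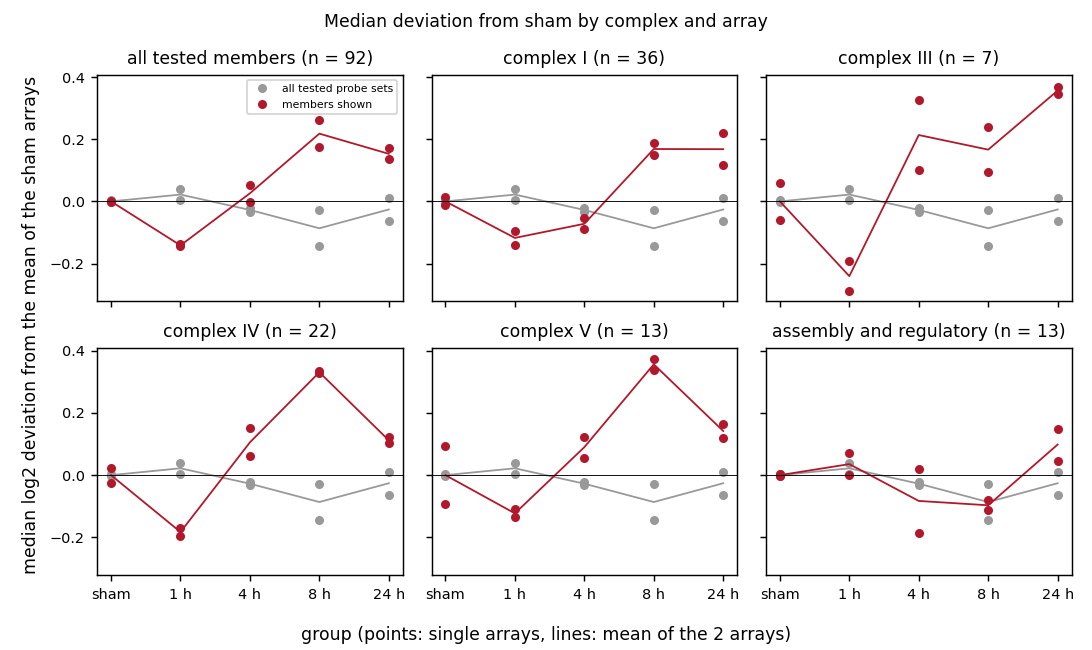
Median log2 deviation from the mean of the sham arrays for the tested members and for complexes I, III, IV, V and the assembly and regulatory proteins (red), beside all 5285 tested probe sets (grey); points are single arrays and lines join the means of the 2 arrays of a group. Complexes III, IV and V lie below sham at 1 h and above it at 8 h on both arrays, and the assembly and regulatory proteins lie between -0.185 and 0.15. In complex V the 1 h arrays (-0.136 and -0.110) lie close to the lower of the sham arrays (-0.094 and 0.094).

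Few single probe sets passed the test. Against sham, limma called 0 of 92 at 1 h (1.44% of all tested probe sets), 0 at 4 h (4.35%), 0 at 8 h (3.5%) and 1, higher, at 24 h (10.3%). At an unadjusted p under 0.05 there were 7 at 1 h (12% of all tested), 6 at 4 h (17.4%), 13 at 8 h (18.6%) and 10 at 24 h (25.6%). Between successive times limma called 0 from 1 to 4 h (5% of all tested, with 14 at an unadjusted p under 0.05, against 18.5%), 2 from 4 to 8 h (8.29%; 1 higher, 1 lower) and 3 from 8 to 24 h (11.8%; 2 higher, 1 lower). Unadjusted, 17 passed from 4 to 8 h (18.5%, against 23.3%) and 17 from 8 to 24 h (18.5%, against 27.5%), so in each of the 7 contrasts the share of the 92 was below that of all tested probe sets. The F test over the 4 burn times called 3 (3.26% of the 92, against 15.3% of all). That gap depends on the variance model: with an intensity trend and robust variance the F test called 21 of the 92 (22.8%) and 1261 of 5285 (23.9%). Leaving out 1 array of the 4, 8 or 24 h group lowered the F test count in the 92. Counts over all tested probe sets are not set beside that.

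Changes were small as well as rarely called. A change of over 2-fold in either direction was seen in 1 of 92 at 1 h (7.74% of all tested), 0 at 4 h (10.4%) and 3 each at 8 h (9.84%) and 24 h (14.5%). The 95% interval of the change lay wholly within 2-fold for 71 of 92 at 1 h and again at 24 h (77.2% each), for 72 at 4 h (78.3%) and for 67 at 8 h (72.8%). Over all tested probe sets these shares were 51%, 46.9%, 45.4% and 41.4% from 1 to 24 h. The median standard error was 0.21 (log2) in the 92 and 0.28 over all. The 92 were not matched in intensity to the rest of the array.

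The direction was shared more widely than the calls. At 1 h both arrays were below both sham arrays for 37 of the 92 (40.2%, against 20.9% of all tested) and above for 9 (against 21.7%). At 4 h 17 were above (18.5%, against 20.1%) and 17 below (18.5%, against 25.8%). At 8 h 42 were above (45.7%, against 18.5%) and 8 below (8.7%, against 29.6%), and at 24 h 33 were above (35.9%, against 24.6%) and 13 below (14.1%, against 29.2%).

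Successive times share no sham array. From 1 to 4 h both later arrays were above both earlier ones for 44 of the 92 (47.8%, against 22.4% of all tested) and below for 14 (15.2%, against 27.9%). From 4 to 8 h 44 were above again (47.8%, against 22.3%) and 11 below (12%, against 28.6%). From 8 to 24 h 24 were above (26.1%, against 30.8%) and 38 below (41.3%, against 24.9%). By mean intensity, 46 of the 92 were lowest at 1 h and 41 were highest at 8 h, with 28 highest at 24 h. These lowest and highest groups were not counted over all tested probe sets, so no share stands beside them.

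**Figure D3:**
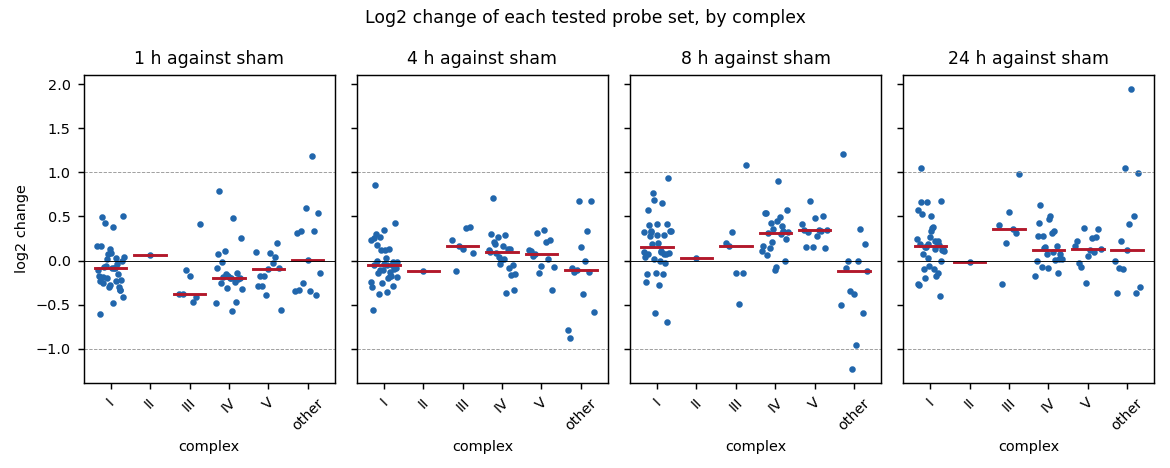
Log2 change from sham of each tested probe set (blue points) by complex at each burn time, with the median of each complex as a red bar; dashed lines mark a 2-fold change. The medians of complexes I, III, IV and V lie below 0 at 1 h and above it at 8 h and 24 h, and nearly all points lie inside the 2-fold lines.

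Complex I, which takes electrons from NADH, followed the course with a small amplitude. The median change of its 36 tested probe sets was -0.084 at 1 h and -0.053 at 4 h, then 0.15 at 8 h and 0.16 at 24 h. At 1 h 13 of 36 had both arrays below both sham arrays, and at 8 h 13 of 36 had both above (36.1% each, against 20.9% and 18.5% of all tested). Only 1 probe set of complex I was called in any contrast, a step of Ndufb6 described below, and none against sham. The iron-sulfur subunit gene Ndufs1 had changes between -0.23 and -0.15 over the 4 burn times, and the core subunit genes Ndufs7 and Ndufv2 had changes of -0.34 and -0.41 at 1 h and of 0.07 and 0.08 at 8 h, none of them called.

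Ndufb9, a subunit of the membrane arm, read 4086 and 3516 on the sham arrays, 2872 and 2582 at 1 h, 3832 and 3478 at 4 h, 4218 and 3425 at 8 h, and 5319 and 4576 at 24 h (rc_AI171542_at). Both 1 h arrays were the lowest of the 10 and both 24 h arrays the highest. The change was -0.48 (SE 0.18) at 1 h and 0.38 at 24 h (adjusted p = 0.363 and 0.256), and the F test had an adjusted p of 0.102.

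Ndufa5, a subunit of the arm that reaches into the matrix, read 1159 and 1203 in sham, 1049 and 1137 at 1 h, 1351 and 1424 at 4 h, 1155 and 1390 at 8 h, and 1644 and 1859 at 24 h (D86215_at). The 24 h arrays lay above all others, 0.57 (SE 0.16) over sham, with an adjusted p of 0.0752. It passed with no filter (0.0369) and with centred arrays (0.0443).

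Ndufb6, of the membrane arm, was the complex I gene with a called step. Its probe set rc_AA900199_s_at read 1777 and 1366 in sham, 1320 and 1207 at 1 h, 1365 and 1257 at 4 h, 1159 and 927 at 8 h, and 1782 and 1771 at 24 h. It rose 1.71-fold from 8 to 24 h (log2 0.78, SE 0.19, adjusted p = 0.0442), and the 24 h arrays lay at the level of the first sham array. The call was lost with centred arrays (0.0984) and without any 1 array of the 1, 4, 8 or 24 h groups (0.065 to 0.178). The other probe set of the gene, rc_AI104528_at, read 1408 and 1649 in sham, 1622 and 1187 at 8 h and 1461 and 1454 at 24 h, and its 8 to 24 h change was 0.07.

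Other complex I genes showed spread between probe sets of a gene or between replicate arrays. Ndufab1, the mitochondrial acyl carrier protein, read 289 and 356 in sham and 603 and 734 at 24 h on AA799336_at, a change of 1.05 (adjusted p = 0.065). On rc_AA891651_g_at the 24 h change of Ndufab1 was 0.53 (0.219), and at 1 h these probe sets had 0.49 and -0.25. Ndufb5 on AA684537_at read 150 and 720 on the sham arrays, a replicate gap wider than any group difference, while rc_AA893185_at of that gene had changes of 0.02 to 0.12. Ndufs8, an iron-sulfur subunit, had changes of 0.41, -0.70 and 0.94 at 8 h on its 3 tested probe sets. Ndufb3 on rc_AA799499_at read 1396 and 2458 in sham and 3050 and 3225 at 8 h, a change of 0.76 that was not called (adjusted p = 0.179).

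Complex II was represented by Sdha, the flavoprotein that oxidises succinate, and it stayed close to its sham level. It read 1417 and 1576 in sham, 1667 and 1460 at 1 h, 1428 and 1317 at 4 h, 1451 and 1605 at 8 h, and 1452 and 1503 at 24 h (rc_AA800250_at). The arrays of all 4 burn times overlapped with sham. Its changes ran from -0.12 to 0.06 (SE 0.16), with 95% intervals between -0.50 and 0.43, and the F test had an adjusted p of 0.851. Sdhaf2, the factor that attaches the flavin to Sdha, read 853 and 900 in sham and 534 and 639 at 4 h, a change of -0.58 (adjusted p = 0.116).

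Complex III, the cytochrome bc1 complex, had the lowest median at 1 h and the highest at 24 h of the 4 complexes with several probe sets: -0.38, 0.17, 0.17 and 0.36 at 1, 4, 8 and 24 h over its 7 tested probe sets. Of these, 4 lay wholly below sham at 1 h (against 20.9% of all tested) and 6 wholly above the 1 h arrays at 4 h (against 22.4%). At 8 h 4 of the 7 had a change above 0 and 3 below, against 2148 and 3132 of all 5285 tested. Limma called 0 of 7 in every contrast. At an unadjusted p under 0.05 there were 1 at 1 h (12% of all tested), 3 from 1 to 4 h (18.5%), 1 from 4 to 8 h (23.3%) and 3 from 8 to 24 h (27.5%).

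Cyc1 (cytochrome c1, the subunit that hands electrons to cytochrome c) read 3519 and 3247 in sham, 2290 and 2958 at 1 h, 3617 and 4334 at 4 h, 3991 and 3791 at 8 h, and 4514 and 4405 at 24 h (rc_AA799474_at). Both 1 h arrays lay below sham and all later arrays above it. The change was -0.38 (SE 0.18) at 1 h and 0.40 at 24 h (adjusted p = 0.481 and 0.23), and 0.61 from 1 to 4 h (0.129).

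Uqcrfs1 codes for the Rieske iron-sulfur protein. On M24542cds_at it read 1907 and 2189 in sham, 1451 and 1508 at 1 h, 2547 and 2730 at 4 h, 1957 and 1086 at 8 h, and 2634 and 2596 at 24 h. The arrays at 1 and 8 h lay below those at 4 and 24 h, but the 8 h arrays themselves differed widely, and the steps of 0.83, -0.85 and 0.84 (SE 0.27) had adjusted p of 0.151, 0.108 and 0.0916. The overlapping design M24542cds_g_at read 5325 and 4680 in sham, 4089 and 3471 at 1 h, 6746 and 6298 at 4 h, 5521 and 3705 at 8 h, and 6990 and 5497 at 24 h, with the same signs. The third probe set, rc_AI103911_at, read 308 and 502 in sham, 568 and 478 at 1 h, 422 and 415 at 4 h, 959 and 720 at 8 h, and 399 and 1514 at 24 h, and its 8 h change was 1.08 where the other two had -0.49 and -0.14.

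Complex IV, cytochrome c oxidase, had 11 of 22 tested probe sets wholly below sham at 1 h (50%, against 20.9% of all tested) and 13 of 22 wholly above at 8 h (59.1%, against 18.5%), with medians of -0.19, 0.10, 0.32 and 0.12. From 1 to 4 h 16 of 22 had both later arrays above both earlier ones (72.7%, against 22.4%). By mean intensity 16 of 22 were lowest at 1 h, a count not made over all tested probe sets. Limma called 0 of 22 in every contrast. At an unadjusted p under 0.05 there were 2 at 1 h (9.09%, against 12% of all tested), 1 at 4 h (4.55%, against 17.4%), 2 at 8 h (9.09%, against 18.6%), 1 at 24 h (4.55%, against 25.6%), 4 from 1 to 4 h (18.2%, against 18.5%), 2 from 4 to 8 h (9.09%, against 23.3%) and 1 from 8 to 24 h (4.55%, against 27.5%).

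Cox5a, which is in the matrix-facing part of the enzyme, read 174 and 208 in sham, 161 and 157 at 1 h, 209 and 233 at 4 h, 212 and 185 at 8 h, and 313 and 278 at 24 h (rc_AI104513_at). The 24 h arrays were the highest 2 of the 10, 0.63 (SE 0.17) over sham with an adjusted p of 0.0619, which passed with no filter (0.0392) or the floor at the 50th percentile (0.0292). Cox6c on M27467_at read 650 and 816 in sham, 1007 and 1028 at 1 h, 505 and 624 at 4 h, 883 and 1177 at 8 h, and 746 and 820 at 24 h. It ran against the course of the complex at 1 and 4 h, with a step of -0.86 (SE 0.21, adjusted p = 0.0741) from 1 to 4 h and 0.86 (0.0544) from 4 to 8 h.

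The other Cox6c probe set, M27466_at, read 371 and 227 in sham, 264 and 145 at 1 h, 312 and 406 at 4 h, 527 and 556 at 8 h, and 407 and 318 at 24 h. Its change at 1 h was -0.57 where M27467_at had 0.48, while at 8 h both lay above 0 (0.90 and 0.49). The pseudogene Cox6c-ps1 (M20183_at) read 129 and 13.1 on the sham arrays and between 42.6 and 149 after the burn. Near-identical copies of this gene can share signal, so its values are uncertain.

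The courses of the subunit 4 isoforms were not compared by a test. Cox4i1, the isoform of most tissues, read 13114 and 11098 in sham, 13437 and 11919 at 1 h and 18534 and 16630 at 8 h on rc_AA818226_s_at. Its 8 h change was 0.54 there (adjusted p = 0.158), 0.11 on J05425cds_s_at and 0.17 on X54081mRNA_i_at, none called. In the same order, its 1 h changes were 0.07, -0.48 and -0.09 on the 3 probe sets. Cox4i2, an isoform known from lung and from low oxygen, read 1080 and 1134 in sham, 1693 and 2149 at 1 h, 1790 and 1819 at 4 h, 1434 and 1801 at 8 h, and 1185 and 1841 at 24 h (rc_H31232_at). All 8 burn arrays of Cox4i2 lay above both sham arrays. Its changes of 0.79, 0.71, 0.54 and 0.42 (SE 0.25) were not called (adjusted p = 0.262, 0.2, 0.303 and 0.365).

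Cox6a1, the liver form of subunit 6a, read 7455 and 7173 in sham, 5598 and 6228 at 1 h, and 9729 and 9087 at 8 h on rc_AI104520_s_at, with changes of -0.31 and 0.36. At 1 and 8 h X72757_at of that gene had changes of 0.11 and 0.43, and X72757_g_at of -0.15 and 0.21. The muscle form Cox6a2 read 929 and 820 in sham and between 549 and 1183 after the burn on X12554cds_s_at, with changes between -0.17 and 0.01. The remaining genes, Cox5b, Cox6b1, Cox7b, Cox8a and Ndufa4, had 8 h changes between -0.07 and 0.45, none called.

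The mitochondrial DNA encoded subunits of complex IV were not below sham in their median at 1 h. COX1 read 29372 and 35511 in sham, 39178 and 43295 at 1 h, 26144 and 31930 at 4 h, 44483 and 49233 at 8 h, and 29934 and 38492 at 24 h on rc_AA850885_s_at. The 4 probe sets of COX1, COX2 and COX3 had changes between 0.01 and 0.52 at 1 h and between 0.28 and 0.54 at 8 h, with medians of 0.31 and 0.42. Limma called 0 of 4 at any time (1.44% to 10.3% of all tested against sham), with 1 at an unadjusted p under 0.05 at 8 h (18.6% of all tested). Whether nuclear and mitochondrial transcripts differed at 1 h was not tested.

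Complex V, the ATP synthase, had the most uniform shift at 8 h. All 13 tested probe sets had a change above 0 at 8 h (0.14 to 0.67, median 0.35), against 2148 of all 5285 tested. Of the 13, 10 had both arrays above both sham arrays (76.9%, against 18.5% of all tested). The highest mean was at 8 h in 11 of 13, a count not made over all tested probe sets. At 1 h the median was -0.10, with 6 of 13 wholly below sham (46.2%, against 20.9%), and at 4 and 24 h it was 0.071 and 0.13. From 8 to 24 h 12 of 13 had a change below 0 (median -0.23), against 2365 of all 5285 tested (median 0.070).

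Atp5f1d, the delta subunit of the catalytic F1 head, was the complex V gene called by the F test (adjusted p = 0.0402). On U00926_g_at it read 1309 and 1478 in sham, 1251 and 1209 at 1 h, 1715 and 1727 at 4 h, 2279 and 2144 at 8 h, and 1912 and 1700 at 24 h. Both 1 h arrays lay below sham and all later arrays above it, highest at 8 h, where the change was 0.67 (SE 0.15, 1.59-fold, adjusted p = 0.0629). The F call was lost without any 1 of the 10 arrays (0.0628 to 0.122). The other design to the same sequence, U00926_at, read 874 and 1092 in sham, 760 and 844 at 1 h, 956 and 1102 at 4 h, 1226 and 1221 at 8 h, and 960 and 907 at 24 h, with 0.32 at 8 h.

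Atp5po, the stalk protein OSCP, read 4190 and 4774 in sham, 3097 and 2954 at 1 h, 4058 and 4495 at 4 h, 5640 and 5801 at 8 h, and 5553 and 4293 at 24 h on D13127_g_at. Its 1 h arrays were the lowest of the 10 and its 8 h arrays the highest, with changes of -0.56 (SE 0.18, adjusted p = 0.26) and 0.35 (0.34) and an F test at 0.066. D13127_at of the same gene read 2727 and 2610 in sham, 2281 and 2764 at 1 h, 2377 and 1902 at 4 h, 3563 and 2411 at 8 h, and 3156 and 3738 at 24 h, and its 1 h change was -0.09.

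The catalytic subunit Atp5f1b read 6514 and 7944 in sham, 5824 and 5984 at 1 h, 8890 and 9433 at 8 h (rc_AI105050_at), with changes of -0.29 and 0.35. Atp5f1a, which alternates with it in the F1 head, read 1785 and 1781 in sham, 2044 and 1790 at 1 h, and 2207 and 2542 at 8 h (X56133_at), and its 1 h change was 0.10. Atp5f1e, the epsilon subunit, read 3542 and 4116 in sham, 3475 and 3632 at 1 h, and 5415 and 5208 at 8 h (rc_AI171844_g_at), a change of 0.48 at 8 h (adjusted p = 0.163). The other tested probe set of Atp5f1e had 0.15 at 8 h. The stalk and membrane subunit genes Atp5pb, Atp5pd and Atp5pf and the gamma subunit gene Atp5f1c had 8 h changes between 0.15 and 0.50, none called.

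The summed level of hepatocyte markers was also higher at 8 h. Their 19 probe sets summed to 505786 to 596088 in sham and 676520 to 703124 at 8 h. Limma called 3 of 17 tested higher there (3.5% of all tested called either way): Fgb 1.72-fold, Serpina1 2.06-fold and Apoa1 2.36-fold, each on 1 probe set. Serpina1 on rc_AI010453_at and X16273cds_g_at changed by 0.34 and 0.29 at 8 h, and Apoa1 on J02597cds_s_at by 0.63, none called. Ttr changed by -0.03 and 0.14 there, Ahsg by -0.10, 0.14 and 0.34, and Cps1 by 0.57 and 0.58. Alb changed by -0.65 on rc_AA860062_at and by 0.15, 0.32 and 0.37 on its other probe sets. None of these was called, and the median change of the 17 was 0.34. At 1, 4 and 24 h the sums were 542195 to 606934, 439423 to 528909 and 533300 to 585591. At 24 h 2 of 17 were called higher (10.3% of all tested called either way): Fgb 1.74-fold and Serpina1 1.68-fold, on the same probe sets as at 8 h. Their part in the 8 h values of the respiratory chain was not tested.

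The proteins around the complexes held most of the called members but did not move together. The median of their 13 tested probe sets was 0.009, -0.11, -0.12 and 0.12 at the 4 times, the 8 h value being 0.042 with centred arrays and the 1 h value -0.008 after quantile normalization. At 8 h 2 of 13 lay wholly above sham (15.4%, against 18.5%) and 6 wholly below (46.2%, against 29.6%).

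Atp5if1, the peptide that stops the ATP synthase from running backwards, had called steps on M35300_f_at. It read 309 and 358 in sham, 537 and 316 at 1 h, 174 and 188 at 4 h, 931 and 633 at 8 h, and 250 and 263 at 24 h. The 4 h arrays were the lowest of the 10 and the 8 h arrays the highest. It rose 4.24-fold from 4 to 8 h (log2 2.08, SE 0.29, adjusted p = 0.00702) and fell 2.99-fold from 8 to 24 h (log2 -1.58, adjusted p = 0.0158), and the F test called it (0.0199). Against sham the 8 h change of 1.21 was not called (0.0793). The 4 to 8 h call was lost without 4 h array 1 (0.054), the 8 to 24 h call without 8 h array 1 or either 24 h array (0.0748 to 0.0797), and the F call without either 4 h array, 8 h array 1 or either 24 h array (up to 0.0622).

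The other probe sets of Atp5if1 did not show that swing. D13122_f_at read 398 and 696 in sham, 356 and 477 at 1 h, 361 and 256 at 4 h, 498 and 275 at 8 h, and 544 and 507 at 24 h. On rc_AA891873_f_at the gene read 456 and 454 in sham, 343 and 376 at 1 h, 462 and 395 at 4 h, 435 and 420 at 8 h, and 400 and 461 at 24 h. Their 4 to 8 h changes were 0.28 and 0.00, and D13122_i_at was not tested. All 3 tested designs carry the suffix f, which marks probe sets that may share signal with related sequences, so which transcript M35300_f_at reports is uncertain.

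Cox7a2l, which joins complexes III and IV into supercomplexes, moved the other way on rc_AI232307_at. It read 499 and 223 in sham, 511 and 491 at 1 h, 549 and 512 at 4 h, 164 and 123 at 8 h, and 764 and 626 at 24 h. The 8 h arrays were the lowest of the 10 and the 24 h arrays the highest. It fell 3.74-fold from 4 to 8 h (log2 -1.90, SE 0.36, adjusted p = 0.0235) and rose 4.88-fold from 8 to 24 h (log2 2.29, adjusted p = 0.0098), and the F test called it (0.0267). The 4 to 8 h call was lost without any 1 array of either group (0.0601 to 0.114), the 8 to 24 h call without 8 h array 2 or 24 h array 1 (0.0554 and 0.0587), and the F call without any 1 burn array (up to 0.117). The sham arrays differed widely, and the 8 h change of -1.23 from sham was not called (0.128). The second probe set, rc_AI172452_at, read 978 and 888 in sham, 808 and 760 at 1 h, 803 and 934 at 4 h, 776 and 687 at 8 h, and 846 and 890 at 24 h, with -0.25 from 4 to 8 h.

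Ndufaf3, a complex I assembly factor, was the 1 member called against sham. On rc_AI171562_at it read 138 and 106 in sham, 168 and 182 at 1 h, 224 and 165 at 4 h, 164 and 116 at 8 h, and 231 and 247 at 24 h. It rose 1.98-fold at 24 h (log2 0.99, SE 0.25, adjusted p = 0.0489), and both 24 h arrays lay above the other 8. The call was lost in 15 of 19 alternative settings, among them each sham, 1 h, 4 h or 24 h array left out (0.0532 to 0.205). U95161_s_at read 328 and 219 in sham, 337 and 344 at 1 h, 350 and 329 at 4 h, 341 and 347 at 8 h, and 383 and 376 at 24 h, a 24 h change of 0.50, and U95162_at read 222 and 255 in sham, 111 and 300 at 1 h, 225 and 209 at 4 h, 106 and 233 at 8 h, and 167 and 204 at 24 h, a change of -0.37.

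Ndufa4l2, a paralogue of Ndufa4 known from low oxygen, read under the floor on both sham, both 4 h and both 8 h arrays of AA686870_f_at, 19.6 and 190 at 1 h, and 126 and 157 at 24 h. At 24 h it was at least 3.87-fold higher than sham, and this was not called (adjusted p = 0.113). The other tested probe sets of the gene had changes of 0.12 and 0.41 at 24 h.

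**Figure D4:**
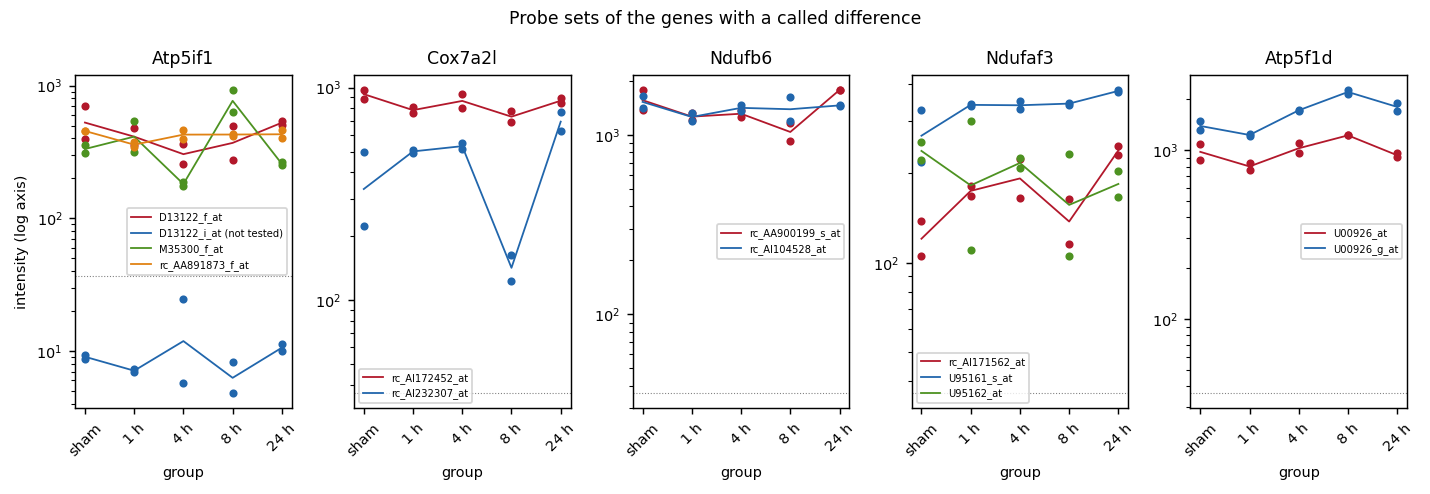
Intensity on a log axis for every probe set of the 5 genes with a call, by group; points are single arrays, lines join the means of the 2 arrays, and the dotted line is the floor of 36.4. For Atp5if1 and Cox7a2l 1 probe set swings at 8 h and the other tested ones of that gene do not.

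Disagreement within a gene was common. Of the 25 genes with several tested probe sets, all of a gene's probe sets had changes of 1 sign in 15 at 1 h, in 16 at both 4 h and 8 h, and in 14 at 24 h. The median distance between the highest and the lowest change of a gene was 0.42, 0.26, 0.39 and 0.32 at the 4 times, as large as or larger than the median change of any complex apart from 24 h in complex III.

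Replicates of the 92 probe sets were closer than those of the array, a comparison not matched for intensity. The median absolute log2 difference between the 2 arrays of a group was 0.26 in sham, and 0.13, 0.17, 0.15 and 0.14 in the burn groups in order of time. Over all tested probe sets it was 0.28, 0.25, 0.28, 0.29 and 0.25. The sham arrays were thus the least alike pair for these genes.

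Genes that feed or surround the chain were read from lists named for their role. Of the carriers that enter electrons at ubiquinone or beside it, Etfdh, the flavoprotein that passes electrons from fatty acid oxidation to ubiquinone, had a called change on 1 of its 3 tested probe sets, rc_AI237007_at. That probe set read 609 and 480 in sham, 571 and 431 at 1 h, 768 and 594 at 4 h, 181 and 127 at 8 h, and 13.4 and 15.2 at 24 h. It fell 3.56-fold at 8 h (log2 -1.83, SE 0.26, adjusted p = 0.0185) and was at least 14.9-fold lower at 24 h, where both arrays were under the floor (adjusted p = 0.000336). The 8 h call was lost when either sham array, or 8 h array 2, was left out (up to 0.0941), and the 24 h call held in all 19 alternative settings (adjusted p of 0.0197 at most). The other 2 did not show this fall. On rc_AI176422_at Etfdh read 1194 and 1429 in sham, 903 and 1025 at 8 h, and 1262 and 1181 at 24 h, with changes of -0.44 and -0.10 (adjusted p = 0.326 and 0.834). On rc_AI176422_g_at it read 1410 and 1311 in sham, 1038 and 899 at 8 h, and 1232 and 1198 at 24 h, with changes of -0.49 and -0.16 (0.165 and 0.597). Which of the 3 reports the level of the Etfdh transcript was not tested.

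In the same list Suox, the sulfite oxidase that reduces cytochrome c, read 945 and 862 in sham and 454 and 425 at 24 h and fell 2.05-fold (adjusted p = 0.0129). That list had 8 tested probe sets of 5 genes, of which 1 was called lower at 8 h (3.5% of all tested called either way) and 2 at 24 h (10.3%). In the tricarboxylic acid cycle 1 of 10 tested probe sets was called against sham, at 24 h (10.3% of all tested). It reports Idh2, the mitochondrial isocitrate dehydrogenase that makes NADPH. Idh2 read 1059 and 1154 in sham, 702 and 620 at 1 h, 1394 and 1368 at 8 h and 637 and 595 at 24 h, and fell 1.79-fold at 24 h (rc_AA891785_at, adjusted p = 0.0145). Its other probe set, rc_AA891785_g_at, had a 24 h change of -0.62 that was not called (0.12). The list's medians were -0.14, 0.23, 0.32 and 0.28. The calls of Suox and Idh2 were lost without any 1 sham or 24 h array (0.0522 to 0.0812).

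Import and chaperone genes had the most calls around the complexes. Of 18 tested probe sets 1 was called higher at 4 h (4.35% of all tested called either way) and 5 at 24 h (10.3%), and none lower by limma at any time. Tomm20, a receptor of the outer membrane import pore, read 607 and 647 in sham, 847 and 750 at 1 h, 1601 and 1380 at 4 h, 665 and 720 at 8 h, and 1627 and 1901 at 24 h (U21871_at). It rose 2.37-fold at 4 h (adjusted p = 0.00802) and 2.81-fold at 24 h (0.00288), and D63411_s_at rose 2.02-fold at 24 h (0.037). The 4 h call was lost without sham array 1 or 4 h array 1 (0.0536 and 0.0553).

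Timm17a, of the inner membrane import channel, rose 2.48-fold at 24 h (391 and 464 in sham, 998 and 1121 at 24 h, adjusted p = 0.00593). The chaperonin partner Hspe1 rose 2.17-fold (2111 and 1642, then 4057 and 4014, 0.0174) on rc_AI170613_g_at, with 0.64 on rc_AI170613_at, not called (0.144), and the prohibitin Phb2 1.71-fold (1969 and 1955, then 3576 and 3142, 0.0276). The calls of Hspe1, Phb2 and D63411_s_at were each lost without sham array 2 or either 24 h array (0.0762 to 0.16), and those of Phb2 and D63411_s_at also without sham array 1 or either 1 h array, with D63411_s_at lost without either 4 h array too (0.0503 to 0.0954).

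Among carriers, porins and uncoupling proteins 1 of 15 tested probe sets was called against sham, at 24 h (10.3% of all tested). It reports the phosphate carrier Slc25a3, which brings phosphate to the ATP synthase. Slc25a3 read 2159 and 1968 in sham and 4082 and 3430 at 24 h and rose 1.82-fold (adjusted p = 0.0201), a call lost without any 1 sham or 24 h array (0.0522 to 0.105). Of the regulators, 1 of 9 tested probe sets was called against sham, at 8 h (3.5% of all tested). The thyroid hormone receptor Thra read 241 and 221 in sham and 103 and 95.3 at 8 h on X12744_at and fell 2.33-fold there (0.0446). This call was lost in 15 of 19 settings, among them any 1 sham, 1 h, 4 h or 8 h array left out (up to 0.184). The other tested probe set of Thra, M31174_g_at, had a change of opposite sign, from 97.3 and 63.3 in sham to 309 and 152 at 8 h, which was not called (log2 1.46, adjusted p = 0.128). A fit of only the 2 groups compared ended each of these calls against sham apart from that of Etfdh at 24 h (adjusted p of 0.0566 to 0.181), and those of Ndufaf3, Ndufb6 and Atp5if1 and the 4 to 8 h step of Cox7a2l (0.0593 to 0.126). With no filter the 4 to 8 h step and the F call of Cox7a2l (0.0533 and 0.0645) and the call of D63411_s_at (0.0524) were lost, and under the replicate block the F call of Atp5f1d (0.053) and the call of D63411_s_at (0.0502). These lists and the respiratory chain share the sham arrays, so their courses are set side by side and not correlated.

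**Figure D5:**
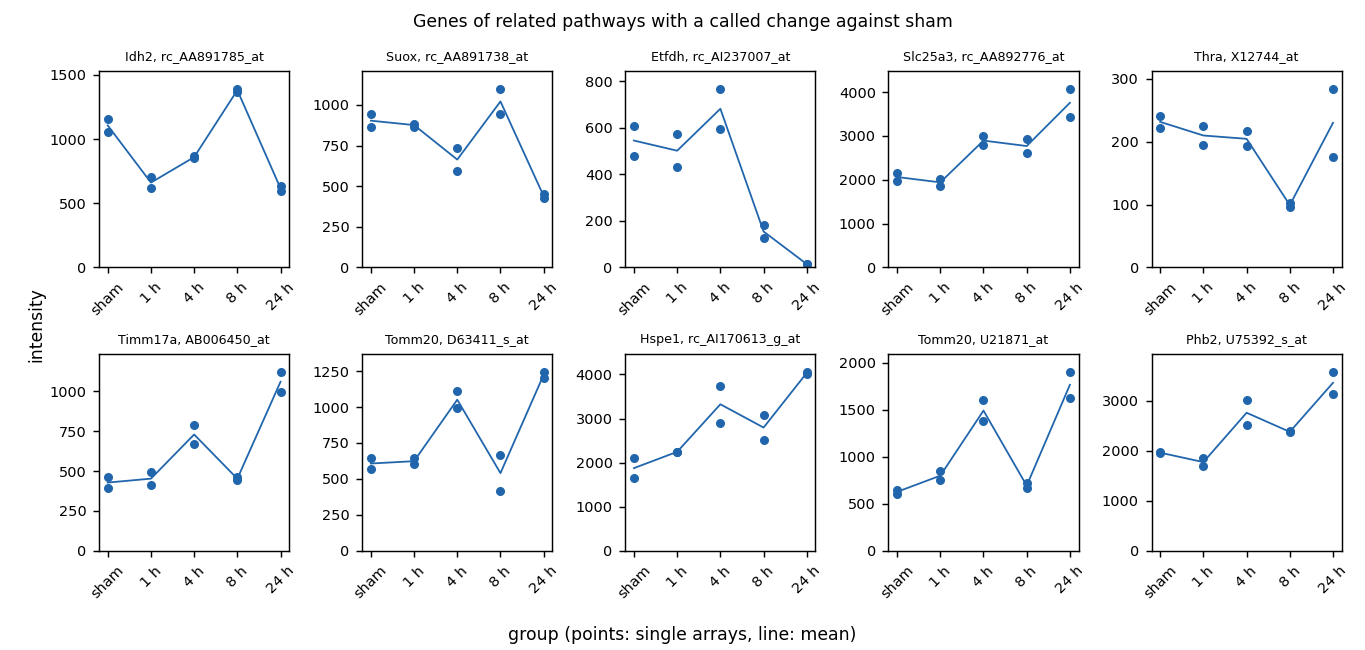
Intensity on 10 linear axes from 0 of the probe sets in related pathways that were called in a comparison with sham, by group; points are single arrays and lines join the means. Etfdh probe set rc_AI237007_at falls from 8 h to values of 13.4 and 15.2 at 24 h, which the other 2 Etfdh probe sets, not drawn, do not show, while the import genes Tomm20 and Timm17a are high at 4 h and 24 h and near sham at 8 h.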

How the data were processed

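The authors deposited 1 intensity per probe set and array. The software and settings that made these values are not given in the sources used here, and equal trimmed means (2% off each end) show that arrays were scaled to a common level. Genes come from the platform's probe table: 7018 probe sets carry 1 symbol, 308 several, and 1473 are not listed. All 56 gene symbols matched RefSeq.

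Values under the floor (the median of the arrays' 25th percentiles) were raised to it and log2 transformed. R 4.3.3 with limma 3.58.1 fitted 1 model of 5 groups with 5 residual degrees of freedom (7.1 after moderation). Tests were two-sided. With 2 arrays a group, their number limits the precision.

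Array values are given for each member called in any contrast or by the F test and for the 2 members of each complex with the smallest F test p, and for related genes called against sham. Other members given at array level, such as Cox4i2 and Ndufab1, were picked after their values were seen. The members and lists were chosen with earlier results of these data known. Alternatives were quantile normalization, median centring, floors at the 10th and 50th percentiles, no filter on low values, robust variance with an intensity trend, a replicate block, a fit of only 2 groups, probe sets of plain design, 1 probe set a gene, and each array left out.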

Additional observations from a re-analysis of the deposited data

Results flagged for a closer look

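Differences between successive burn times, tested in the same limma model, were called for 3 probe sets. Atp5if1 M35300_f_at changed by 2.08 (log2) from 4 to 8 h and by -1.58 from 8 to 24 h. Cox7a2l rc_AI232307_at changed by -1.90 from 4 to 8 h and by 2.29 from 8 to 24 h. Ndufb6 rc_AA900199_s_at changed by 0.78 from 8 to 24 h. In each of these genes another probe set had a smaller change over the same step.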

How the results depend on the processing

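The median change at 1 h stayed between -0.17 and -0.12 in all 20 alternatives. That at 4 h was 0.058 with centred arrays and ran from -0.032 to 0.053 with 1 array left out. At 8 h it was 0.365 with centred arrays, 0.149 with plain probe set designs and 0.174 to 0.262 with 1 array left out, and at 24 h 0.207 after quantile normalization and 0.249 with centred arrays. With the floor at the 50th percentile 2 members were called at 8 h, 5 at 24 h, 2 from 1 to 4 h, 6 from 4 to 8 h, 6 from 8 to 24 h and 5 by the F test, against 5.9%, 13.8%, 7.59%, 11%, 14.6% and 21.4% of all probe sets tested. With no filter the counts of 102 were 1, 3, 1, 5, 6 and 7 (3.18%, 7.42%, 3.7%, 5.36%, 8.02% and 10.2% of all), and with the intensity trend and robust variance 4, 3, 8, 10, 9 and 21 of 92 (7.13%, 15.7%, 8.1%, 12.9%, 16.4% and 23.9% of all). With plain probe set designs 0 were called at 24 h, 1 from 4 to 8 h, 1 from 8 to 24 h and 1 by the F test. The floor at the 10th percentile left 0 calls at 24 h, and a fit of only the groups compared left 0 from 4 to 8 h. With 1 array left out the counts moved in every test apart from 4 h and 8 h against sham. At 1 h the only member concerned was Ndufa4l2 AA686870_f_at, without 1 h array 1. Counts over all tested probe sets are not given for these alternatives, from the plain designs on, or for the replicate block. Those member counts are therefore not read as particular to these genes. At 4 h limma called 0 members in all 19 alternatives. The labels do not say whether equal replicate numbers pair samples across groups, and this was not tested. The differences between replicates correlated at 0.01 to 0.17 over 10 pairs of groups, over 0.1 in 5. Under the replicate block the count from 1 to 4 h was 1 (Cox6c M27467_at) and that of the F test 4. The medians at 1, 8 and 24 h kept their sign in all 20 alternatives, and the median at 4 h did not. Signals near the floor limit Cox8b, Cox6c-ps1 and Ndufa4l2.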
